A study of Homo sapiens with 8 samples.

Results

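The transcription factor ATF4, its partner CHOP (encoded by DDIT3) and 6 genes that act with them were followed through 4 groups of LN229-TAZ(4SA) cells. The other 6 were the leucine zipper factors ATF3, ATF5, CEBPB and CEBPG, and the feedback regulators TRIB3 and PPP1R15A. The members were picked as a list of gene symbols, with earlier results of these data known, and make up 8 of the 13730 genes in the deposited table. All 8 were found, and all 8 passed the filter on low expression that left 13057 genes for testing. LN229 is an established human glioblastoma line, and every group carried the TAZ(4SA) construct named in its label, so no group shows the parental line. The groups were cells with TrxR1 knocked out (KO) without glucose, control cells (EV) without glucose, KO cells in regular medium, and EV cells in regular medium. Each had 2 libraries, called a and b here, and values are given in that order. The growth medium was DMEM with 10% fetal bovine serum. The number of knockout clones and the length of the deprivation are not given in the sources used here. Clonal differences and the loss of TrxR1 therefore cannot be told apart. The study profiled expression to examine how TrxR1 inhibition and lack of glucose act together on tumour cell death.

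These genes belong to the integrated stress response. Kinases that sense amino acid shortage, misfolded protein in the endoplasmic reticulum, heme shortage or double-stranded RNA phosphorylate the initiation factor eIF2, which lowers protein synthesis in general but lets ATF4 mRNA be translated. ATF4 binds DNA together with C/EBP family partners and raises genes of amino acid supply as well as DDIT3, ATF3, TRIB3 and PPP1R15A. PPP1R15A directs a phosphatase to eIF2 and so closes the loop, and TRIB3, a pseudokinase, binds ATF4 and CHOP and restrains them. Much of the control of ATF4, ATF5 and CHOP is at translation, and the libraries measured mRNA only.

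The starts of 5 of these genes are shown for the motifs they hold or for the size of their change. They are the stretches outside annotated exons within 250 bases upstream of a RefSeq start site on GRCh38.p14, written 5′ to 3′ on the strand of the gene. Capitals mark a match to the C/EBP-ATF response element (CARE, TGATGNAA) or to the cAMP response element (CRE, TGACGTCA), each searched on both strands. CEBPG (chr19:33373896-33374112, plus strand) holds a CARE match at bases -42 to -35 from its start site at 33374113. That is 1 of 2 annotated starts, and the window of the other, at 33373709, held no match. PPP1R15A (chr19:48872171-48872391, plus strand) holds a CRE match at -58 to -51. ATF3 (chr1:212565157-212565333, plus strand) holds a CARE match at -191 to -184 from its start site at 212565407, which is also 1 of 2. DDIT3 (chr12:57520518-57520709, minus strand) is the gene of the set with the largest change, and ATF5 (chr19:49929995-49930218, plus strand) is the gene that moved the other way. The ATF5 stretch belongs to the start site at 49930245, 1 of 3, and lies inside the annotated gene. The windows of its other start sites lie wholly in annotated exons and are not shown. Neither the DDIT3 nor the ATF5 stretch holds a match to the exact letters of CARE or CRE. Near-matches and bases farther upstream were not searched.
CEBPG: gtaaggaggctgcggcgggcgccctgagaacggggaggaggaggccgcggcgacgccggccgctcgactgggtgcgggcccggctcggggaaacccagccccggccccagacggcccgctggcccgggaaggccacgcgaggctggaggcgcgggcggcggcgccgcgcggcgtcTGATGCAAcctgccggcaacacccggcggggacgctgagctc
PPP1R15A: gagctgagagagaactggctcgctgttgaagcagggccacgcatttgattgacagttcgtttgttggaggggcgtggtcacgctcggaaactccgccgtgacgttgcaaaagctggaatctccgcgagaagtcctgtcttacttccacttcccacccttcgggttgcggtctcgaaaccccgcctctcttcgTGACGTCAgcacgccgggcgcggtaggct
ATF3: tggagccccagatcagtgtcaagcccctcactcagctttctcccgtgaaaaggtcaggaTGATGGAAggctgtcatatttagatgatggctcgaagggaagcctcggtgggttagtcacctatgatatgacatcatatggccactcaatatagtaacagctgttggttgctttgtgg
DDIT3: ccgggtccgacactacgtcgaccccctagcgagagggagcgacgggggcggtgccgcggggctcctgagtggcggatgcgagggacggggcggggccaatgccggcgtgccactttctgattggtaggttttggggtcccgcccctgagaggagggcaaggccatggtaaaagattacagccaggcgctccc
ATF5: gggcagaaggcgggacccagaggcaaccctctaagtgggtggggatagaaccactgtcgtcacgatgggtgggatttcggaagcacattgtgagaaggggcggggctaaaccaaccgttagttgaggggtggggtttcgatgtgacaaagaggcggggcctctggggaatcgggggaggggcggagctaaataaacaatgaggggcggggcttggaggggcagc

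Upstream windows were found for all 8 genes, 17 windows in all because most have several annotated start sites. The other motifs searched were AP-1 (TGANTCA) and the endoplasmic reticulum stress element (ERSE). An AP-1 match lay upstream of DDIT3, at -241 to -235 and -238 to -232 from its 2 start sites, which is the same place on the genome, and upstream of the start site of ATF5 at 49928906, at -188 to -182. No match to these 4 motifs was found in the windows of ATF4, CEBPB or TRIB3. Among all 35116 windows of this length, 3.14% held a CARE, 1.65% a CRE, 6.57% an AP-1 and 0.074% an endoplasmic reticulum stress element match. A match describes these letters only, and binding was not measured.

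The reads recovered from the table summed to 70083018 to 107229069 per library, so that 1 read was worth 0.00948 to 0.01434 CPM (reads of a gene scaled by library size), and the 8 genes had between 1326 and 94490 reads each in every library. TXNRD1, the gene of TrxR1, fell in KO cells without glucose (log2 KO over EV change -0.47 ± 0.036, SE, limma adjusted p = 1.97e-05) and was at -0.08 ± 0.036 in regular medium (adjusted p = 0.192). Totals per gene do not test the knockout. TXNIP, which glucose induces, was at 8.43 to 11.04 CPM in the libraries taken as glucose-deprived and at 77.3 to 87.1 CPM in the others. Of 10 glioblastoma and glial markers all were in the table, and their summed level was 5745 to 5995, 6332 to 6347, 6537 to 6714 and 6468 to 6480 CPM in KO and EV cells without glucose and KO and EV cells in regular medium. GFAP was low, at 0.675 to 1.41 CPM. Of 8 markers of other cell types 4 were in the table, summed at 43.5 to 43.7, 52.6 to 53.3, 33.7 to 35.7 and 43.4 to 44.6 CPM in the same order. KRT8 and COL1A1 made up most of that sum, CD14 and RBFOX3 were at 1.17 CPM or less, and none was at 0. Single markers moved more than these sums, which VIM, MKI67 and CD44 dominate. With deprivation 4 of 9 tested glial markers rose and 5 fell in KO cells, where 73.3% of all tested genes were called. In EV cells 3 rose and 4 fell, where 76.2% of all tested genes were called. The CD44 call in EV cells was lost when any EV library was left out. SOX2 changed by -1.35 in KO cells and -1.72 in EV cells, NES by -0.97 and -1.03 and OLIG2 by 1.32 and 1.24. KRT8 changed by 0.61 in KO cells and 0.64 in EV cells. With the knockout 1 of 9 glial markers rose and 3 fell in regular medium, where 7.25% of all tested genes were called. EGFR changed by 0.29, SOX2 by -0.51 and S100B by -0.46. PDGFRA (-0.34) lost its call without KO regular a or either EV regular library. COL1A1 (-0.33) and KRT8 (-0.38) fell as well. That call of KRT8 needed each EV regular library (adjusted p = 0.0537 and 0.083 with a or b left out), and that of COL1A1 needed EV regular b (0.0572). Without glucose 2 rose and 4 fell in KO cells, where 19.6% of all tested genes were called. NES, EGFR, SOX2 and VIM each lost their call there when at least 1 library was left out. MKI67 changed by -0.32, S100B by -0.40, KRT8 by -0.40 and COL1A1 by -0.27. For the interaction, the KO over EV change without glucose minus that in regular medium, 2 of 9 glial markers were higher and 1 lower. Of all tested genes 4.31% were called there. SOX2 was at 0.363, PDGFRA at 0.419 and MKI67 at -0.365. SOX2 and PDGFRA lost that call when at least 1 library was left out. These marker changes are as large as many knockout and interaction changes of the 8 regulators, and their part in the results below was not tested. No label describes the libraries as separate cultures. The p-values then measure the spread between the sequenced libraries alone, which may be technical. In bulk RNA a change in the number of expressing cells cannot be told apart from a change per cell.

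**Figure D1:**
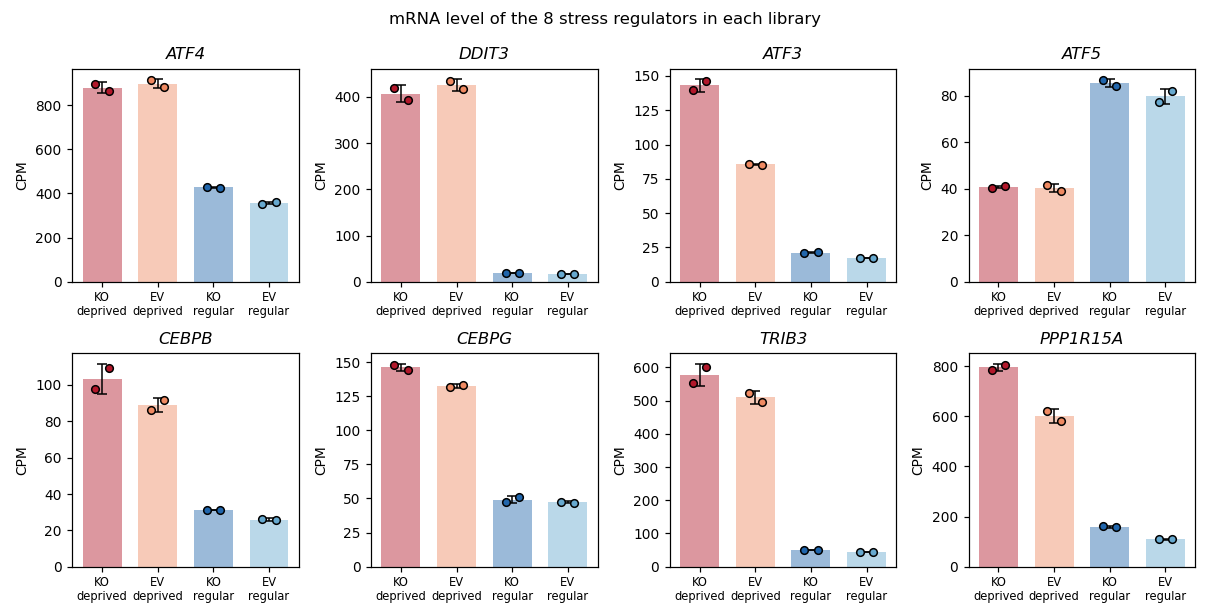
Level of each of the 8 genes in CPM, in KO and EV cells without glucose and KO and EV cells in regular medium, with 1 point for each of the 2 libraries a group. Glucose-deprived libraries lie above regular ones in 7 panels, and below them for ATF5.

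Glucose deprivation was accompanied by higher mRNA of 7 of the 8 regulators and lower mRNA of ATF5, in KO and in EV cells. All 8 were called in each comparison, against 73.3% of all tested genes in KO cells (36.5% higher, 36.8% lower) and 76.2% in EV cells (37.5% higher, 38.7% lower). Since most genes were called, the sizes say more than the counts. The median log2 fold change of the 8 was 2.02 in KO cells and 2.04 in EV cells, while that of all tested genes was 0.00 in KO cells and -0.01 in EV cells. No library of a deprived group overlapped one of its regular group for any of these genes. The share of all tested genes with libraries apart in this way was not computed, here or for the knockout comparisons below. Separation of libraries is therefore given as description only. Whether the change differed between KO and EV cells is given with the interaction below.

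ATF4 (Entrez 468, chromosome 22, 39519695 to 39522685, plus strand, GRCh38, as are the coordinates of all genes below), the central factor of the response, was at 896 and 862 CPM in KO cells and 913 and 882 CPM in EV cells without glucose. In regular medium it was at 430.2 and 426 CPM in KO cells and 354 and 361 CPM in EV cells. It was thus abundant in regular medium too, and it rose 2.05-fold in KO cells (log2 fold change 1.04 ± 0.034, adjusted p = 1.45e-09) and 2.51-fold in EV cells (1.33 ± 0.034, adjusted p = 2.29e-10). By size that was rank 680 from the top of 13057 genes in KO cells and rank 382 in EV cells.

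The C/EBP factors that pair with ATF4 had larger fold changes than ATF4 in each cell type. CEBPB (Entrez 1051, chromosome 20, 50190734 to 50192689, plus strand), which also drives inflammatory and differentiation genes, was at 97.6 and 109 CPM in KO cells and 86.4 and 91.9 CPM in EV cells without glucose. In regular medium it was at 31.1 and 31.0 CPM in KO cells and 26.4 and 25.5 CPM in EV cells. The rise was 3.33-fold in KO cells (1.73 ± 0.056, adjusted p = 1.33e-09) and 3.43-fold in EV cells (1.78 ± 0.056, adjusted p = 1.04e-09).

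CEBPG (Entrez 1054, chromosome 19, 33373330 to 33382686, plus strand) encodes a short C/EBP protein that forms dimers with ATF4. The CARE match shown above lies upstream of 1 of its 2 annotated starts. It was at 148 and 144 CPM in KO cells and 131 and 134 CPM in EV cells without glucose. In regular medium it was at 47.2 and 51.2 CPM in KO cells and 47.7 and 46.6 CPM in EV cells. KO and EV libraries overlapped in regular medium, while the media were far apart. The rise was 2.97-fold in KO cells (1.57 ± 0.044, adjusted p = 4.52e-10) and 2.81-fold in EV cells (1.49 ± 0.044, adjusted p = 6.19e-10).

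DDIT3 (Entrez 1649, chromosome 12, 57516588 to 57521737, minus strand) encodes CHOP, which promotes cell death under lasting stress. It was at 419 and 393 CPM in KO cells and 435 and 417 CPM in EV cells without glucose, and at 19.3 and 19.0 CPM in KO cells and 17.4 and 17.6 CPM in EV cells in regular medium. The media were thus separated by more than an order of magnitude. The rise was 21.2-fold in KO cells (4.41 ± 0.042, adjusted p = 3.67e-13) and 24.3-fold in EV cells (4.60 ± 0.042, adjusted p = 2.34e-13). DDIT3 ranked 7 from the top of all 13057 genes in KO cells and 5 in EV cells, the highest of the set.

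ATF3 (Entrez 467, chromosome 1, 212565334 to 212620777, plus strand), a stress-induced factor that represses as well as activates, was at 140.0 and 147 CPM in KO cells and 85.7 and 85.4 CPM in EV cells without glucose. In regular medium it was at 21.1 and 21.4 CPM in KO cells and 17.4 and 17.3 CPM in EV cells. KO libraries were above EV libraries in each medium, with the wider gap without glucose. The deprivation change was 6.74-fold in KO cells (2.75 ± 0.040, adjusted p = 4.87e-12) and 4.92-fold in EV cells (2.30 ± 0.040, adjusted p = 1.34e-11).

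ATF5 (Entrez 22809, chromosome 19, 49928702 to 49933935, plus strand), a factor of the mitochondrial stress response that is abundant in gliomas, went the other way. It was at 40.5 and 41.0 CPM in KO cells and 41.5 and 38.9 CPM in EV cells without glucose, and at 86.7 and 84.2 CPM in KO cells and 77.4 and 82.0 CPM in EV cells in regular medium. The KO and EV libraries overlapped without glucose. ATF5 fell in KO cells (-1.07 ± 0.045, 0.477-fold, adjusted p = 9.57e-09) and in EV cells (-0.99 ± 0.045, 0.505-fold, adjusted p = 1.51e-08), at rank 217 and rank 473 from the bottom.

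Of the feedback regulators, TRIB3 (Entrez 57761, chromosome 20, 362835 to 397559, plus strand) was at 554 and 602 CPM in KO cells and 524 and 497 CPM in EV cells without glucose. In regular medium it was at 51.0 and 49.4 CPM in KO cells and 43.9 and 43.5 CPM in EV cells. The rise was 11.5-fold in KO cells (3.52 ± 0.045, adjusted p = 1.92e-12) and 11.7-fold in EV cells (3.55 ± 0.045, adjusted p = 2.41e-12), at rank 20 and rank 23 from the top.

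PPP1R15A (Entrez 23645, chromosome 19, 48872392 to 48876057, plus strand), also called GADD34, was at 786 and 806 CPM in KO cells and 621 and 582 CPM in EV cells without glucose. In regular medium it was at 163 and 157 CPM in KO cells and 112 and 109 CPM in EV cells. KO libraries lay above EV libraries in each medium. The rise was 4.98-fold in KO cells (2.32 ± 0.039, adjusted p = 1.37e-11) and 5.45-fold in EV cells (2.45 ± 0.039, adjusted p = 8.14e-12). PPP1R15B, the constitutive relative that serves the same phosphatase, was not called in any of the 5 comparisons and changed by 0.03 with deprivation in EV cells.

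**Figure D2:**
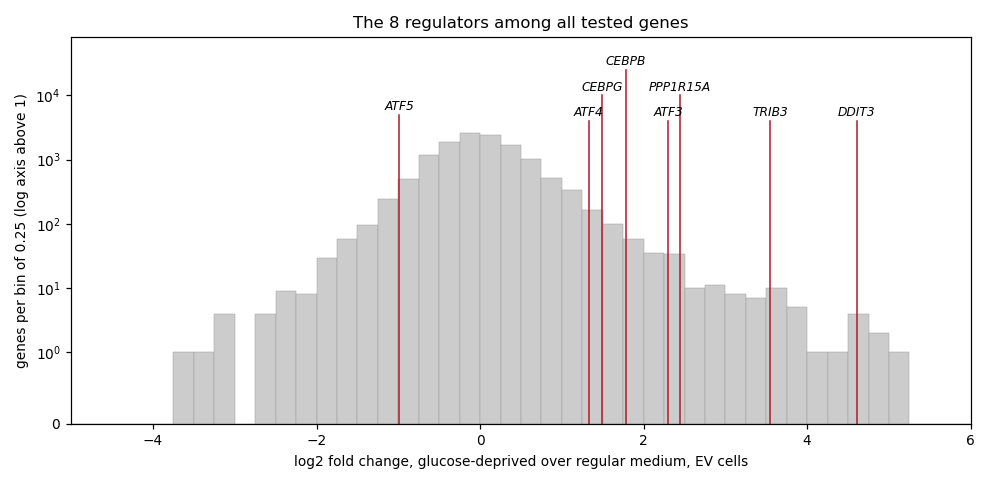
Histogram of the log2 fold change of glucose-deprived over regular medium in EV cells for the 13057 tested genes, in bins of 0.25, with the count axis logarithmic above 1 and lines at the 8 regulators. DDIT3 at 4.60 and TRIB3 at 3.55 lie in the upper tail, the other risers between 1.33 and 2.45, and ATF5 at -0.99.

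The library preparation does not mark strand, so reads of overlapping genes cannot be told apart. DDIT3 overlaps MARS1 on the opposite strand, at 322 and 312 CPM in KO cells and 314 and 311 CPM in EV cells without glucose, and 262 and 256 CPM in KO cells and 233 and 230.2 CPM in EV cells in regular medium. The log2 change of MARS1 with deprivation was 0.29 in KO cells and 0.43 in EV cells. In regular medium DDIT3 was at 17.4 to 19.3 CPM, well below MARS1. With the knockout MARS1 rose by 0.164 in regular medium (limma adjusted p = 0.0148), and it is also among the listed targets counted below. MBD6, also opposite DDIT3, changed by 0.70 in KO cells and 0.88 in EV cells. The part of MARS1 and MBD6 in the DDIT3 value was not tested. ATF5 overlaps NUP62, at 95.0 and 95.9 CPM in KO cells and 95.9 and 95.0 CPM in EV cells without glucose, and 157 and 146 CPM in KO cells and 139 and 139 CPM in EV cells in regular medium. NUP62 also fell, by -0.67 in KO cells and -0.54 in EV cells, which is less than ATF5, and its part in the ATF5 value was not tested. CEBPB-AS1, opposite CEBPB, was at 0.969 to 4.44 CPM. It rose with deprivation by 1.83 in KO cells and 1.62 in EV cells, near the change of CEBPB, and its part in the CEBPB value was not tested.

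In regular medium, KO cells had slightly higher mRNA of several regulators than EV cells. Of the 8, 5 rose and 0 fell, against 3.87% of all tested genes called higher and 3.38% lower (7.25% in either direction). The median log2 fold change was 0.23 for the 8 and 0.00 for all tested genes. PPP1R15A rose most, by 0.54 ± 0.039 (1.45-fold, adjusted p = 3.17e-05), and ranked 66 from the top. ATF3 rose by 0.29 ± 0.040 (1.22-fold, adjusted p = 0.00215) and ATF4 by 0.26 ± 0.034 (1.20-fold, adjusted p = 0.00153). These 3 calls held without any single library.

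CEBPB rose by 0.26 ± 0.056 (adjusted p = 0.022) and TRIB3 by 0.20 ± 0.045 (adjusted p = 0.0249) in regular medium, but these calls rested on single libraries. CEBPB lost its call without KO regular a (adjusted p = 0.0749) or b (0.0557) or EV regular a (0.12) or b (0.174), and TRIB3 without KO regular a (0.0992) or EV regular a (0.171) or b (0.174). Fewer members were then called without KO regular a, EV regular a or EV regular b. Over all tested genes the count varied as well, and was lowest without EV regular a. DDIT3, at 0.13 ± 0.042 (adjusted p = 0.0907), ATF5, at 0.10 ± 0.045 (0.206), and CEBPG, at 0.06 ± 0.044 (0.429), did not pass. KO and EV libraries overlapped for CEBPG only.

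In glucose-deprived medium ATF3 and PPP1R15A were higher in KO than in EV cells, while ATF4 and DDIT3 did not pass the test. Again 5 of the 8 rose and 0 fell, against 9.04% of all tested genes called higher and 10.6% lower (19.6% in either direction). The median log2 fold change was 0.16 for the 8 and -0.01 for all tested genes. ATF3 rose by 0.74 ± 0.040 (1.67-fold, adjusted p = 1.45e-06, rank 98 from the top) and PPP1R15A by 0.40 ± 0.039 (adjusted p = 0.000116), and these calls held without any single library. ATF4 differed by -0.03 ± 0.034 (adjusted p = 0.568), DDIT3 by -0.07 ± 0.042 (0.276) and ATF5 by 0.02 ± 0.045 (0.805), and the libraries of KO and EV cells overlapped for these 3 genes.

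CEBPB rose by 0.21 ± 0.056 (adjusted p = 0.0246), TRIB3 by 0.18 ± 0.045 (0.0208) and CEBPG by 0.14 ± 0.044 (0.0456) in KO cells without glucose, each with KO libraries above EV libraries. Without KO glucose-deprived b the changes were 0.13 for CEBPB and 0.12 for TRIB3. CEBPB lost its call without that library (adjusted p = 0.14) or EV glucose-deprived a (0.182) or b (0.0615), and TRIB3 without KO glucose-deprived b (0.111) or EV glucose-deprived a (0.0553) or b (0.179). CEBPG lost its call without either KO (0.126 and 0.078) or either EV (0.215 and 0.158) glucose-deprived library and without either EV regular library (0.0823 and 0.0822). Without KO glucose-deprived b, EV glucose-deprived a or EV glucose-deprived b, only ATF3 and PPP1R15A remained called. Over all tested genes the count was lowest without EV glucose-deprived b.

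**Figure D3:**
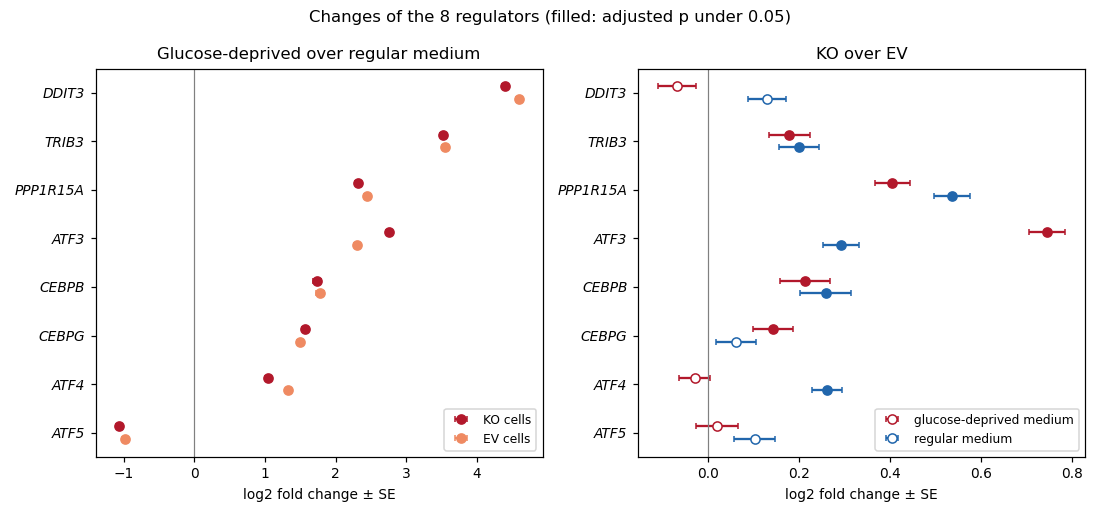
Log2 fold change ± SE (limma) of each of the 8 genes, for KO over EV cells in each medium and for glucose-deprived over regular medium in each cell type, with filled points at an adjusted p under 0.05. Deprivation changes run from -1.07 to 4.60, while knockout changes run from -0.07 to 0.74.

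Whether the knockout changed a gene differently in the 2 media was tested by the interaction, the KO over EV change without glucose minus that in regular medium. Of the 8 genes 1 was called higher and 1 lower, against 2.31% and 2.01% of all tested genes (4.31% in either direction). For ATF3 it was 0.45 ± 0.056 (adjusted p = 0.00192), the knockout change being 0.74 without glucose and 0.29 in regular medium, and this call held without any single library. For ATF4 it was -0.29 ± 0.048 (adjusted p = 0.00854), the knockout change being -0.03 without glucose and 0.26 in regular medium. The ATF4 call ended without EV glucose-deprived a (adjusted p = 0.0694) or EV regular a (0.08). DDIT3 moved in the same direction as ATF4 (-0.20, adjusted p = 0.0836) and passed without KO glucose-deprived a (0.0251). PPP1R15A (-0.13, adjusted p = 0.182), ATF5 (-0.08, 0.467), CEBPG (0.08, 0.459), CEBPB (-0.04, 0.772) and TRIB3 (-0.02, 0.872) did not pass.

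**Figure D4:**
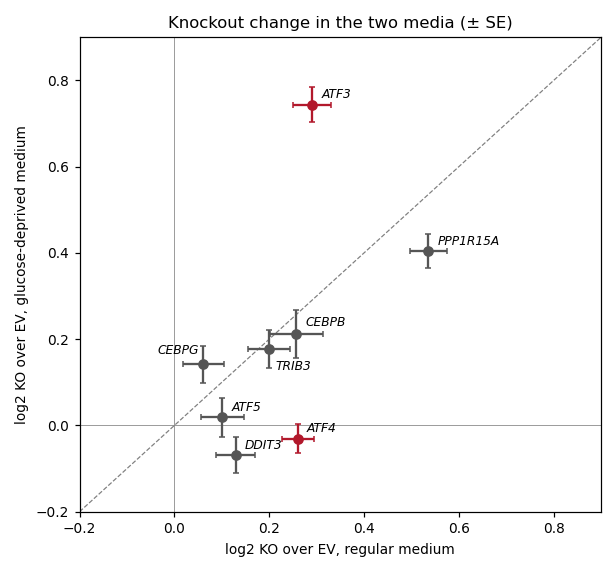
Log2 fold change of KO over EV cells in regular medium (x axis) against that in glucose-deprived medium (y axis) for the 8 genes, each ± SE. ATF3 lies at 0.29 and 0.74, PPP1R15A at 0.54 and 0.40, and ATF4 at 0.26 and -0.03.

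Levels of different genes were compared per length, as CPM divided by the kilobases of exon annotated for the gene. The transcripts used by these cells were not measured, so this scale is approximate. On this scale ATF4 was the highest of the 8 in every group. It was at 349.6 ± 9.4 CPM per kb in KO cells and 357 ± 8.7 in EV cells without glucose, and 170.3 ± 1.1 in KO cells and 142 ± 2.2 in EV cells in regular medium (SD, n = 2 libraries). In KO cells without glucose the ratio of PPP1R15A to ATF4 was 0.928 and 0.989, so their order there depends on the lengths used. DDIT3 was at 311 ± 14.1 in KO cells and 326 ± 10.1 in EV cells without glucose, among the 3 highest, and at 14.6 ± 0.18 in KO cells and 13.4 ± 0.14 in EV cells in regular medium. The ratio of DDIT3 to ATF4 per kb was therefore 0.878 to 0.901 in KO cells and 0.909 to 0.917 in EV cells without glucose, against 0.0857 to 0.0864 in KO cells and 0.0938 to 0.0946 in EV cells in regular medium.

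In KO cells without glucose the order below ATF4 was PPP1R15A (335 ± 6.1 CPM per kb), DDIT3, TRIB3 (199 ± 11.6), ATF3 (56.5 ± 1.8), CEBPB (52.9 ± 4.2), CEBPG (33.1 ± 0.61) and ATF5 (15.8 ± 0.14). The libraries of ATF3 and CEBPB overlapped there. In EV cells without glucose it was DDIT3, PPP1R15A (253 ± 11.7), TRIB3 (176 ± 6.7), CEBPB (45.6 ± 2.0), ATF3 (33.7 ± 0.092), CEBPG (30.0 ± 0.33) and ATF5 (15.6 ± 0.69). ATF5 thus had the lowest level per kb of the set in each deprived group.

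In regular medium ATF5 stood much higher in the order. KO cells had PPP1R15A (67.2 ± 1.7 CPM per kb), ATF5 (33.2 ± 0.70), TRIB3 (17.3 ± 0.38), CEBPB (15.9 ± 0.032), DDIT3, CEBPG (11.2 ± 0.64) and ATF3 (8.38 ± 0.063) below ATF4. EV cells had PPP1R15A (46.4 ± 0.79), ATF5 (30.9 ± 1.3), TRIB3 (15.1 ± 0.09), DDIT3, CEBPB (13.3 ± 0.34), CEBPG (10.7 ± 0.17) and ATF3 (6.85 ± 0.044). The libraries of DDIT3 and CEBPB overlapped in EV cells. Summed over the 8 genes, the level was 3081 and 3105 CPM in KO cells and 2839 and 2728 CPM in EV cells without glucose, and 849 and 839 CPM in KO cells and 695 and 703 CPM in EV cells in regular medium.

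**Figure D5:**
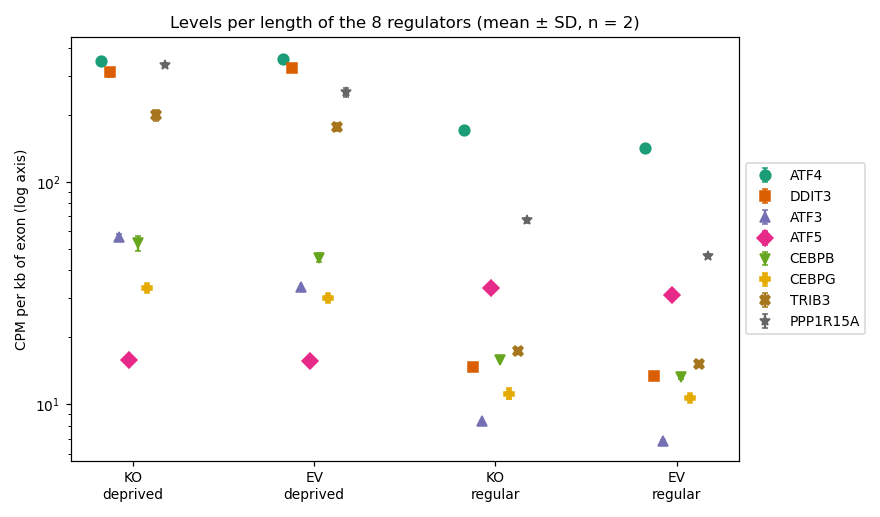
Level per length of the 8 genes (CPM per kb of exon, log axis) in KO and EV cells without glucose and in regular medium, as the mean ± SD of 2 libraries. ATF4 is the highest throughout on this approximate scale, with PPP1R15A close to it in KO cells without glucose. DDIT3 is among the 3 highest without glucose and at rank 6 (KO) and 5 (EV) in regular medium, and ATF5 is the lowest without glucose.

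To show which other genes followed the same pattern, the root mean square difference of log2 CPM, each gene centred on its own mean over the 8 libraries, was computed against all tested genes. These are descriptions, and the media set most of the pattern. DDIT3 was most like HERPUD1, a component of endoplasmic reticulum protein degradation (0.108), with SPRR2D (0.28) and BEST1 (0.292) next. CEBPG was closest to PSAT1, an enzyme of serine synthesis (0.03), KDM7A (0.037) and LARP6 (0.051). ATF4 was closest to KCNN3 (0.045), CLIP4 (0.051) and HDAC9 (0.061).

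ATF3 was most like ZFAND2A (0.149), PPP1R15A (0.167) and TSPYL2 (0.217), so that its second neighbour among all genes was a member of the set. PPP1R15A was closest to NDRG1 (0.112), SLC16A6 (0.149) and VEGFA (0.166). TRIB3 was closest to PAPPA2 (0.091), SH3BGR (0.118) and DNAJB9, an endoplasmic reticulum co-chaperone (0.127). CEBPB was closest to GPNMB (0.083), FAM110B (0.089) and SEMA5A (0.097), and ATF5 to TSKU (0.034), LASP1 (0.039) and VOPP1 (0.043). Within the set, CEBPB and CEBPG were the nearest pair (0.148) and DDIT3 and ATF5 the farthest apart (2.77).

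Upstream of ATF4, the list of eIF2 kinases, eIF2 and eIF2B subunits and eIF2 phosphatase partners was called in about the same share as all genes. Of 19 genes, 6 rose and 7 fell with deprivation in KO cells, where 73.3% of all tested genes were called, and 8 rose and 7 fell in EV cells, where 76.2% were. The median was -0.01 in KO cells and 0.02 in EV cells. EIF2AK3, the kinase PERK of the endoplasmic reticulum, rose by 2.23 in KO cells and 2.09 in EV cells, and DNAJC3, an inhibitor of eIF2 kinases, by 2.25 and 2.10. EIF2AK4, the amino acid sensing kinase GCN2, changed by -0.52 and -0.46, and PPP1CC, a catalytic phosphatase subunit, by -0.81 and -0.90. With the knockout 0 of the 19 rose and 2 fell in regular medium (7.25% of all genes called) and 1 rose and 3 fell without glucose (19.6% of all genes called), again near the share of all genes. Each of these knockout calls was lost when at least 1 library was left out.

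Downstream, nearly all listed targets of ATF4 and CHOP rose with deprivation. Of 45 listed, 44 were in the table and 43 were tested, of which 42 rose and 1 fell in KO cells (median 1.43) and 41 rose and 0 fell in EV cells (median 1.59). Of all tested genes 36.5% were called higher in KO cells and 37.5% in EV cells. This and the other gene lists were chosen with earlier results of these data known, so their counts are descriptions and not tests. HERPUD1 rose by 4.64 in KO cells and 4.51 in EV cells, CHAC1, which degrades glutathione, by 3.34 and 3.35, and SESN2, a sestrin that restrains mTORC1, by 3.50 and 3.13. ALDH18A1, an enzyme of proline synthesis, fell in KO cells (-0.16, adjusted p = 0.00511, and -0.10 without KO glucose-deprived b).

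With the knockout these targets gave calls in both directions. In regular medium 12 rose and 2 fell of 43, with a median of 0.08, against 3.87% and 3.38% of all tested genes. SLC7A11, the cystine importer and also a target of NRF2, rose by 1.94 ± 0.041 at 187 ± 10.4 CPM in KO cells and 48.7 ± 0.79 CPM in EV cells. CHAC1 rose by 0.53 and STC2, a secreted glycoprotein, by 0.48, while DDIT4, an inhibitor of mTORC1, fell by 0.34 on the log2 scale, a call lost without EV regular a (adjusted p = 0.078). Fewer targets were called without EV regular a or b. The count over all tested genes varied as well, and was lowest without EV regular a.

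Without glucose 9 of the 43 targets rose and 5 fell with the knockout (median 0.03), against 9.04% and 10.6% of all tested genes. CHAC1 rose by 0.52, at 154 ± 5.8 CPM in KO cells and 108 ± 1.4 CPM in EV cells, SLC7A11 by 0.50, SESN2 by 0.43 and SLC3A2, the partner chain of SLC7A11, by 0.39. ALDH1L2, a mitochondrial folate enzyme, fell by 0.40 on the log2 scale, at 107 ± 3.6 CPM in KO cells and 141 ± 3.9 CPM in EV cells. Fewer targets were called without KO glucose-deprived b or either EV glucose-deprived library, and the count over all tested genes varied as well. For the interaction 2 of 43 were higher, DDIT4 (0.67) and SESN2 (0.37), and 6 lower, among them SLC7A11 (-1.44), ALDH1L2 (-0.46) and STC2 (-0.45), against 2.31% and 2.01% of all tested genes. SESN2 lost that call without EV glucose-deprived b or EV regular a (0.34 in each case), and also when limma was run without the variance trend (adjusted p = 0.0661). The number of targets called for the interaction varied when single libraries were left out, in both directions.

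Among 40 tested of 47 other leucine zipper factors, 28 rose and 8 fell with deprivation in KO cells, where 36.5% of all tested genes were called higher and 36.8% lower, and 26 rose and 11 fell in EV cells, where the shares were 37.5% and 38.7%. XBP1, the factor of the IRE1 arm of the unfolded protein response, rose by 2.88 in KO cells and 2.55 in EV cells, NFIL3, a repressor that acts in the circadian clock, by 2.53 and 2.24, and CREB3L4, a membrane-bound factor, by 2.19 and 2.41. FOSL2, an AP-1 subunit, changed by -0.42 in KO cells and -0.43 in EV cells. With the knockout 3 rose and 2 fell in regular medium (7.25% of all genes called), where MAFG, a small MAF protein that pairs with NRF2, rose by 0.27 and MAF fell by 0.55.

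Without glucose, 13 of these 40 factors rose and 4 fell in KO cells, against 9.04% and 10.6% of all tested genes. The AP-1 genes FOS (1.70 ± 0.088, at 40.5 ± 1.2 CPM in KO cells and 12.4 ± 0.27 CPM in EV cells), FOSB (1.21 ± 0.10) and JUN (0.85 ± 0.11) led the rises. JUN was at 189.9 ± 41.7 CPM in KO cells and 104 ± 1.4 CPM in EV cells, a wide spread between the KO libraries. XBP1 rose by 0.24, whereas CREB3L4 fell by 0.41 and CREB3L2 by 0.23. For the interaction 6 were higher and 0 lower, against 2.31% and 2.01% of all tested genes. These were FOS (1.98), FOSB (1.11), JUN (0.94), MAF (0.61), XBP1 (0.33) and NFIL3 (0.29), of which JUN and NFIL3 were named after their values were seen. JUN lost that call without EV glucose-deprived a (0.93), and also when limma was run without the variance trend (adjusted p = 0.0734). NFIL3 lost it when any 1 of the 8 libraries was left out, and without the variance trend (adjusted p = 0.0601). Counts of called factors with the knockout and for the interaction varied in both directions when single libraries were left out. So did the counts over all tested genes.

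The other arms of the unfolded protein response rose with deprivation as well, for 25 of 26 tested genes in each cell type. The median was 1.86 in KO cells and 2.01 in EV cells, while 36.5% of all tested genes were called higher in KO cells and 37.5% in EV cells. This list shares genes with those above, so the counts are not independent. HERPUD1 is also a listed target, DNAJC3 is also on the eIF2 list, and XBP1 and ATF6 are also among the leucine zipper factors. JDP2 is both a listed target and a leucine zipper factor. Of the relatives listed next, CEBPA and CEBPD are also among the leucine zipper factors, and PPP1R15B is also on the eIF2 list. HSPA5, the main chaperone of the endoplasmic reticulum, rose by 3.41 in KO cells, at 7928 ± 317 CPM without glucose and 745 ± 6.5 CPM in regular medium, and by 3.19 in EV cells, at 8796 ± 346 and 967 ± 12.1 CPM. With the knockout 1 rose and 9 fell in regular medium, HSPA5 by -0.38, MANF by -0.32 and PDIA4 by -0.30, and 1 rose and 14 fell without glucose, HYOU1 by -0.31, SYVN1 by -0.30 and PDIA4 by -0.23. Of all tested genes 3.38% were called lower in regular medium and 10.6% without glucose. These falls stood beside higher ATF3 and PPP1R15A in the same KO libraries. Fewer of these genes were called in regular medium without EV regular a or b, and in glucose-deprived medium without EV glucose-deprived a. Counts over all tested genes varied as well when single libraries were left out.

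Of 6 close relatives of TRIB3, PPP1R15A and the C/EBP members, 5 were tested. With deprivation TRIB1 rose by 1.29 in KO cells and 0.95 in EV cells, against 3.52 and 3.55 for TRIB3, and TRIB2 fell by 0.55 and 0.62 on the log2 scale. CEBPA, at 1.68 to 3.13 CPM on average in a group, fell by 0.55 and 0.86. CEBPD was at 0.62 to 2.69 CPM on average and fell in EV cells (-2.07, or -1.18 as log2 of CPM + 1). With the knockout only TRIB1 without glucose was called (0.29), where 19.6% of all tested genes were called. That call was lost without EV glucose-deprived b (0.25). For the interaction 1 of the 5 was higher, TRIB1 (0.336), against 2.31% of all tested genes. TRIB1 lost its interaction call when at least 1 library was left out, and also when limma was run without the variance trend (adjusted p = 0.111).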

How the data were processed

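Per the labels' protocols, TRIzol-extracted RNA went into SMART-Seq mRNA and Nextera XT libraries, which do not mark strand. The submitters' processing notes name HISAT2, edgeR and GRCh38, without versions. The counter and annotation are not given in the sources used here. The authors deposited log2 CPM values for 13730 genes. Unlogged and with an offset of 0.023 CPM taken off, these deposited values were whole multiples of 1 read for 100% of genes (tolerance 0.05), and CPM printed here has that offset removed. Column headers give the group and no replicate number, and GlcN in a header was read as glucose-deprived, although these letters also abbreviate glucosamine.

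The deposited log2 values of genes with a mean of at least 0 (13057, with 673 below) entered limma 3.58.1 (R 4.3.3) as 1 model of 4 groups with a variance trend and 4 residual degrees of freedom (prior 6.29). P-values are two-sided, adjusted by Benjamini-Hochberg over all tested genes in each of 5 contrasts, and called under 0.05. Errors of fold changes are moderated standard errors. The steps were tested on simulated data. Coordinates and exon lengths are from GENCODE release 29 on GRCh38. Promoter sequences are RefSeq's on GRCh38.p14.

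The members and lists were chosen with earlier results of these data known. Named genes are the members, up to 4 called genes of each list in each direction by smallest adjusted p, 3 genes nearest to each member in pattern, and the genes that check the labels. PPP1R15B, MARS1, MBD6, MIR616, NUP62 and CEBPB-AS1, which overlap or are related to members, were named after their values were seen.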

Additional observations from a re-analysis of the deposited data

Results flagged for a closer look

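For ATF3 the change with the knockout differed between the media, by an interaction of 0.45 on the log2 scale (KO over EV 0.74 without glucose and 0.29 in regular medium, limma adjusted p = 0.00192). For ATF4 it differed by -0.29 (-0.03 without glucose and 0.26 in regular medium, adjusted p = 0.00854). In each case the difference itself was tested. The ATF3 call held without any single library, while the ATF4 call ended without EV glucose-deprived a (adjusted p = 0.0694), without EV regular a (0.08) or without the variance trend (0.0661).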

How the results depend on the processing

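Changes with deprivation were called for all 8 members under every alternative run, and no pathway gene named for deprivation lost its call. Over all comparisons 558 of 592 member results under alternatives kept their direction and call, 28 lost the call, 1 gained it and 5 changed sign. The sign changes were in values that did not pass. With 1 library left out, the TRIB3 interaction ran from -0.0808 to 0.0377 (0.0377 without KO glucose-deprived a, 0.017 when EV glucose-deprived a was left out, 0.00107 without KO regular a), the CEBPB interaction from -0.127 to 0.0369 (without KO glucose-deprived a), and the ATF5 knockout change without glucose from -0.0265 (without EV glucose-deprived b) to 0.0643. Leaving out 1 library gave 3 to 5 called members for KO against EV in regular medium, 2 to 5 without glucose and 1 to 3 for the interaction. Without the variance trend these were 3, 2 and 1, as CEBPB, CEBPG and TRIB3 lost their knockout calls (adjusted p = 0.071 to 0.102) and ATF4 its interaction (0.0661), and the counts over all genes were 433, against 946 with it, in regular medium and 223, against 563, for the interaction. With 1 library left out, the genes called among all tested, which the members' counts are set against, numbered 168 to 1414 in regular medium (fewest without EV regular a), 852 to 3058 without glucose (fewest without EV glucose-deprived b) and 147 to 1579 for the interaction (fewest without EV regular a). Of named list and marker genes 163 of 2120 such results lost their call. Median-of-ratios scaling moved libraries by -0.006 to 0.006. limma's voom on the recovered reads, added after seeing the data, called 4, 5 and 2 members, TRIB3 being lost in regular medium (0.0594). The count tests planned, edgeR and DESeq2, were not run because the deposited unit is log2 CPM. No paired analysis was possible because the column headers carry no replicate numbers. With 2 libraries a group, the knockout calls of CEBPB, CEBPG and TRIB3, at 0.14 to 0.26 on the log2 scale, were each lost without single libraries.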

Other observations

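MIR616, a microRNA gene within DDIT3 on the same strand, was listed at 1.38 and 1.11 CPM in KO cells and 1.504 and 0.99 CPM in EV cells without glucose, and at 0.036 and 0.148 CPM in KO cells and 0.105 and 0.157 CPM in EV cells in regular medium. It was below the expression filter and untested, and reads of MIR616 and DDIT3 cannot be separated. MBD6, which overlaps DDIT3 on the opposite strand, was at 123 and 125 CPM in KO cells and 131 and 134 CPM in EV cells without glucose, and at 81.6 and 71.4 CPM in KO cells and 71.6 and 72.7 CPM in EV cells in regular medium.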
